A study of Mus musculus with 6 samples.

Results

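The genes described are 10 that report endoplasmic reticulum (ER) stress and the integrated stress response in mouse liver: Hspa5, Ddit3, Atf3, Atf4, Trib3, Asns, Xbp1, Herpud1, Dnajb9 and Sdf2l1. They were taken from a fixed list, chosen with earlier results of these data known, and matched by symbol. They were 10 of 18193 genes that had a probe set with 1 symbol. Each was read from the probe set with the highest mean signal over the 6 arrays. All 10 were among the 13988 measured genes, which lay on at least 1 array above 221.4, the 50th percentile of the signals, used as the floor. Of the 10, 8 were above it on all 6 arrays, Trib3 on 5 and Atf3 on 3.

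The study asked how liver transcripts differ with a fast-food diet and with canertinib, an inhibitor of the ERBB receptor kinases that include EGFR. There were 6 groups of male C57BL6/J mice with 1 Affymetrix Mouse Genome 430 2.0 array each, hybridised with RNA pooled from 3 to 4 livers. In the 2-month study, mice that were 6 to 8 weeks old at the start ate chow, the fast-food diet (21% fat and 34% sucrose by weight, 0.2% cholesterol, with glucose and fructose in the water), or that diet with canertinib mixed in, a daily dose estimated at 80 mg/kg. In the 5-month study the same ages and diets were used, and the last 5 weeks brought intraperitoneal injections on 5 days per week, of PBS for the fast-food group and of canertinib at 80 mg/kg for the drug group. Route and duration of the drug thus differed together with the length of the study, and the labels give no injection for chow mice. With 1 pooled array per group, differences within a study have no error and no test. A pooled array also does not show how single mice vary. In bulk liver RNA, fewer cells of a type and less RNA per cell cannot be told apart.

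When unfolded proteins build up in the ER, the sensors IRE1, PERK and ATF6 start the unfolded protein response, which raises chaperones, folding enzymes and the machinery that sends misfolded proteins for degradation. PERK and other kinases that phosphorylate eIF2alpha lower general translation and favour that of ATF4, which drives genes for amino acid supply and, under lasting stress, CHOP. Hepatocytes secrete most plasma proteins and so carry a large ER. ATF4 is raised mainly through translation and XBP1 is activated by splicing of its mRNA, and these probe sets, read as total transcript, report neither step.

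The promoters of 4 of the 10 genes held a textbook element of these pathways in the 250 bases before the annotated start, and they are shown so that the known pathway elements can be read beside the values. The search covered both strands for the ER stress element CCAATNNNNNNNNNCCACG, bound by ATF6 with NF-Y, its variant ER stress element II, the C/EBP-ATF element TGATGNAA, and the unfolded protein response element TGACGTGG. Sequences are from RefSeq (GRCm38.p6), the 150 bases before the start, 5′ to 3′ on the gene's strand, with the fixed letters of each match in capitals.
Hspa5 chr2:34771940-34772089 (+ strand): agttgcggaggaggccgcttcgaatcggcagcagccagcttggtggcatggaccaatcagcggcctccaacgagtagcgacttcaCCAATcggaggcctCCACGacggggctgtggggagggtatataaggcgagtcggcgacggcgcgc
Herpud1 chr8:94386279-94386428 (+ strand): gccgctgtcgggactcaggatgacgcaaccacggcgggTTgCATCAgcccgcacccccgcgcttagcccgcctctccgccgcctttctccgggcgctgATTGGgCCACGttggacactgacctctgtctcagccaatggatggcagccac
Asns chr6:7693210-7693359 (- strand): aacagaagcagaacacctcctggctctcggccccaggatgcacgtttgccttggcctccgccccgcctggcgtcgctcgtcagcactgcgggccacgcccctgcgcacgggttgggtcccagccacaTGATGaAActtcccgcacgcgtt
Atf3 chr1:191183334-191183483 (- strand): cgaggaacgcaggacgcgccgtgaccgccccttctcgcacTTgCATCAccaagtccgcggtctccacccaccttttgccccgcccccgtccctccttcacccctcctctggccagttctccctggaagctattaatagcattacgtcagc
Hspa5 held the ER stress element from 65 to 47 bases before its start. Herpud1 held the variant from 52 to 42 bases before, and a C/EBP-ATF match from 112 to 105 bases before, on the other strand. Asns held the C/EBP-ATF letters from 23 to 16 bases before its start, and Atf3 held them on the other strand from 110 to 103 bases before. No 2 matches overlapped. Of 32851 promoter windows of that length, 0.113% held the ER stress element, 0.0304% its variant, 3.45% the C/EBP-ATF letters and 0.563% the unfolded protein response element, which no window of the 10 genes held. The other 6 genes had none of these letters in this window.

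Several whole-array measures differed between the groups. Neutrophil markers summed to signals of 15589 and 17048 on the drug arrays and 2959 to 3551 on the others (7 of 8 measured, Camp under the floor throughout). Macrophage and Kupffer cell markers summed to 10950 and 11876 on chow and 26311 to 36056 on the 4 fast-food arrays (8 of 8 measured). B and plasma cell markers, from cells rich in XBP1, summed to 3538 and 3203 on the drug arrays and 2698 to 4215 on the others (7 of 8 measured, among them Derl3, which is also in the degradation list). Of the 7, 1 was higher and 4 lower with the drug than with the diet at 2 months. At 5 months 4 were higher and 2 lower. Jchain, named after its values were seen, read 615.0 and 494.6 on the drug arrays. It read 106.1 to 253.1 on the others, where only the 253.1 was above the floor. Hepatocyte markers were present on every array as the tissue label has it, with all 7 measured and sums of 276593 to 472412, lowest on the 5-month fast-food array and highest on the 2-month drug array. Stellate markers summed at 2 and 5 months to 10106 and 8425 on chow, 17648 and 25338 with fast food, and 17024 and 12990 with the drug. The sums were 6704 to 10275 for endothelial, 756 to 1753 for cholangiocyte and 2501 to 4031 for pancreatic acinar markers. Krt7 and Cpa1 were under the floor throughout. The 3' to 5' log2 ratio of a control is a sign of RNA quality. For actin it was 1.19 and 1.12 on the drug arrays and 0.85 to 0.98 on the others. For Gapdh it was -0.20 and -0.14 on the drug arrays and -0.30 to -0.09 on the others. The part of these measures in the differences given for the genes was not tested.

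In each of the 7 comparisons between arrays at most 1 of the 10 genes was at least 2-fold different. Of all measured genes, 1.28% to 3.80% were so in either direction, so these counts do not set the 10 apart. None of the 10 was so between fast food and chow at either time when signals under the floor were raised to it. Only Asns and Trib3 were so with the drug. The 2 largest steps against the diet array were a 2.63-fold higher Asns with injected canertinib and an at least 2.27-fold lower Trib3 with canertinib in the food. The gene that differed most over the 6 arrays was Atf3, but its signal was under the floor on 3 of them.

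**Figure D1:**
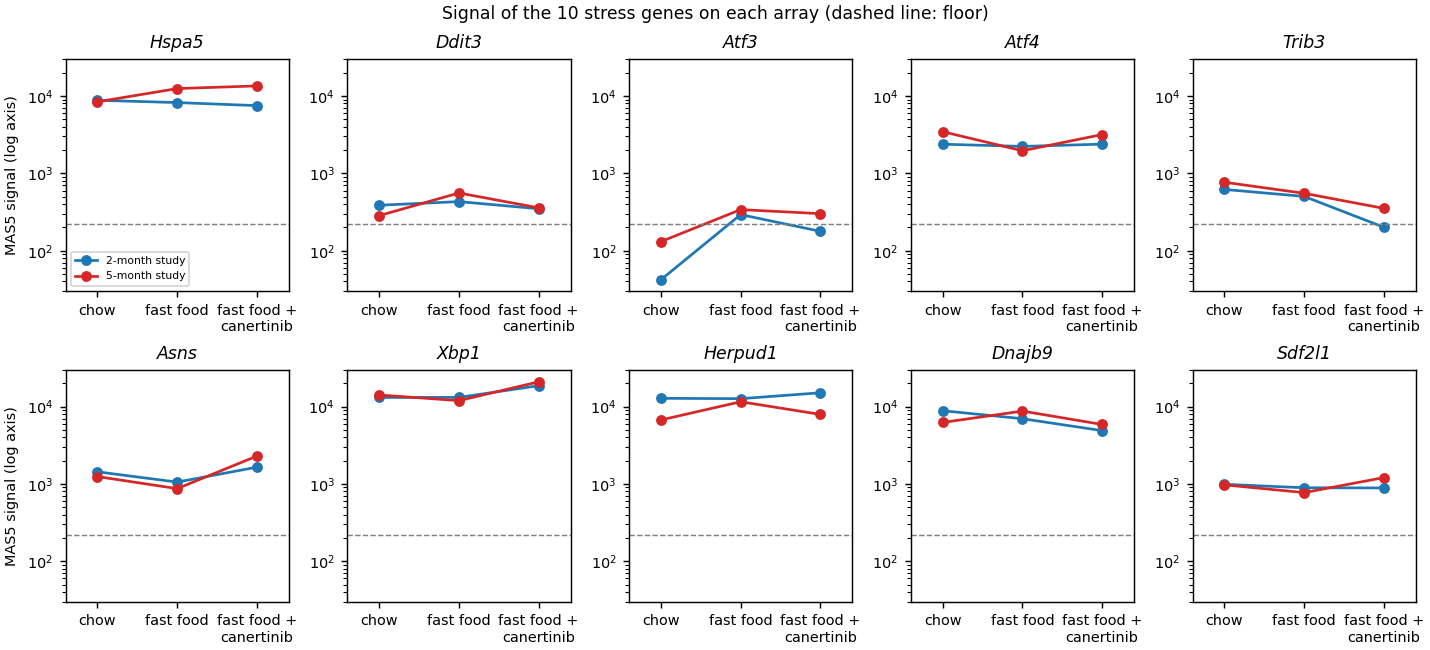
Signal of each of the 10 genes (MAS5 signal, log axis) on the chow, fast-food and fast-food with canertinib arrays, 1 point per array, with the 2-month study in blue and the 5-month study in red; the dashed line is the floor of 221.4. Xbp1 and Asns are highest on both drug arrays, Trib3 is lowest on them, and Atf3 is under the floor on both chow arrays.

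The chaperones and folding helpers of the ER lumen come first. Hspa5 encodes BiP, the main chaperone of the ER, which also holds the sensors inactive. Its signal in the 2-month study was 8801.9 on chow, 8222.9 with fast food and 7508.9 with the drug, and in the 5-month study 8414.8, 12479.3 and 13496.9. Both 5-month fast-food arrays, with and without the drug, stood above the other 4, which lay close together. Against chow the fast-food array was 1.48-fold higher at 5 months and 1.07-fold lower at 2 months, and the latter sign was lost after median centring. Its second probe set gave log2 differences of -0.25 and 0.25, and the third and dimmest gave 0.71 and 0.26 and differed by 1.63 between the chow arrays. The drug differed from the diet by -0.13 and 0.11, and the latter was -0.05 after quantile scaling. The second probe set gave -0.12 and 0.17, and the third -1.28 and -0.47, past 2-fold at 2 months and of the other sign at 5 months. In the fit over both studies the diet estimate was 0.24 ± 0.24 (SE) on the log2 scale, with a limma adjusted p of 0.802.

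Dnajb9 encodes ERdj4, a BiP cochaperone that holds IRE1 in check. It read 8842.6 on 2-month chow, 6967.0 with fast food and 4890.2 with the drug, and 6235.7, 8746.0 and 5867.5 at 5 months. The drug array was the lowest of its study each time, 1.42-fold below fast food at 2 months and 1.49-fold below it at 5 months. Against chow, fast food was lower at 2 months (log2 -0.34) and higher at 5 months (0.49). The limma estimate for the drug against diet was -0.54 ± 0.23 (SE), adjusted p 0.372. Sdf2l1, part of an ER chaperone complex with ERdj3, ran from 772.2 to 1208.7 over the 6 arrays. Its highest reading was that of the 5-month drug array, 1.57-fold above fast food, while the 2-month arrays with and without the drug read 887.9 and 892.4.

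Herpud1 encodes a membrane protein of ER-associated degradation. Its signals were 12791.5 on chow, 12655.8 with fast food and 15080.6 with the drug at 2 months, and 6717.1, 11541.5 and 7921.2 at 5 months. The 5-month chow array was the lowest of all and stood 1.90-fold below the 2-month chow array. The 1.72-fold higher level with fast food at 5 months was therefore set against a low chow array, and still lay under the 2-month chow level. At 2 months the diet difference was -0.02, and 0.09 after median centring. With the drug, the gene was 1.19-fold above fast food at 2 months and 1.46-fold below it at 5 months. The second probe set had the same signs for the drug, at 0.52 and -0.32, and for the diet it gave -0.75 and 0.41.

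Xbp1 encodes the transcription factor that IRE1 activates by splicing, and in liver it also supports lipogenesis and secretion. It read 13118.4 on chow, 13139.2 with fast food and 18624.3 with the drug at 2 months, and 14127.1, 11932.5 and 20884.2 at 5 months. The 2 drug arrays were above all 4 others, and the chow and fast-food arrays overlapped. The diet differences were 0.00 and -0.24, and the first was -0.07 after quantile scaling. Against the diet the drug arrays were 1.42-fold and 1.75-fold higher, and all 4 probe sets were higher both times, by 0.13 to 0.60 at 2 months and by 0.26 to 0.91 at 5 months on the log2 scale. The smallest values were those of the dimmest set, the only one whose name has no _s_at or _a_at ending. The limma estimate was 0.66 ± 0.17 (SE), with an adjusted p of 0.192. The drug arrays on which Xbp1 and Asns were highest were also those with the high neutrophil sums. They held the highest readings of the plasma cell gene Jchain too, named after its values were seen. Of the 7 measured B and plasma cell markers, 1 was higher and 4 lower with the drug than with the diet at 2 months. At 5 months 4 were higher and 2 lower. The part of these cells was not tested.

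The ATF4 branch follows. Atf4, the transcription factor of the integrated stress response, read 2381.2, 2229.9 and 2385.6 on chow, fast food and drug at 2 months, within 1.07-fold of each other and with signs that turned after median centring. At 5 months it read 3455.8, 1958.3 and 3174.7, so fast food was 1.76-fold below chow and the drug 1.62-fold above fast food. The second measured probe set gave -0.46 and 0.16 for these 2 steps, and the third was under the floor throughout. Between the chow arrays the gene was 1.45-fold higher at 5 months.

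Asns encodes asparagine synthetase, a standard ATF4 target. Its signals were 1434.9 on chow, 1056.3 with fast food and 1647.6 with the drug at 2 months, and 1244.8, 870.0 and 2291.1 at 5 months. In both studies the order was the same, with fast food lowest and the drug array highest, and no fast-food reading reached a chow or drug reading. Fast food was 1.36-fold and 1.43-fold below chow, and the drug was 1.56-fold and 2.63-fold above fast food. A second, dim probe set was under the floor on 4 arrays and gave a 5-month step of at least 1.40 on the log2 scale. The limma estimate for the drug against diet was 1.02 ± 0.23 (SE), adjusted p 0.141. With genes above the floor on all 6 arrays alone it passed, at an adjusted p of 0.0389, against a range of 0.0389 to 0.349 over the 9 alternatives.

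Trib3, a pseudokinase that ATF4 and CHOP induce and that feeds back on both, went the other way. It read 619.6 on chow, 503.4 with fast food and 201.0 with the drug at 2 months, and 767.7, 552.1 and 352.5 at 5 months. In both studies chow was highest and the drug array lowest, and both drug readings lay under the other 4. Against chow the drug arrays were at least 2.80-fold and 2.18-fold lower. The second probe set gave 0.34 and -0.79 on the log2 scale for these comparisons, so the 2-month difference had opposite signs in the 2 sets. For the drug with diet against chow, the limma estimate was -1.30 ± 0.25 (SE), with an adjusted p of 0.111. Asns and Trib3, both targets of ATF4, thus differed from the diet in opposite directions with the drug in both studies, on the probe sets used; the other Trib3 set gave -0.05 and 0.07.

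Ddit3 encodes CHOP, the factor tied to cell death under lasting stress. It was dim, at 387.2, 431.4 and 348.6 on chow, fast food and drug at 2 months and at 284.3, 557.6 and 358.3 at 5 months. Fast food was the highest array of each study, 1.11-fold above chow at 2 months and 1.96-fold at 5 months, and the drug arrays were 1.24-fold and 1.56-fold below it. At 5 months the chow array was the lowest of the 6, 1.36-fold under the 2-month chow array. The limma estimate for the diet was 0.56 ± 0.27 (SE), adjusted p 0.598, and the second probe set was under the floor on all arrays.

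Atf3, a stress-induced repressor, read 42.2 on chow, 293.0 with fast food and 178.1 with the drug at 2 months. At 5 months it read 131.2, 339.9 and 301.4. Both chow readings and the 2-month drug reading were under the floor, and both fast-food readings were over it. Fast food was thus at least 1.32-fold and at least 1.54-fold above chow. These bounds depend on the floor: without one the log2 differences were 2.80 and 1.37, with it at the 40th percentile 1.02 and 1.24, and with it at the 60th percentile 0.00 and 0.08. The limma estimate on floored signals was 0.51 ± 0.16 (SE), adjusted p 0.406, or 0.04 ± 0.08 with the higher floor, adjusted p 0.925. A fit on floored signals understates a change of a gene at the floor.

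**Figure D2:**
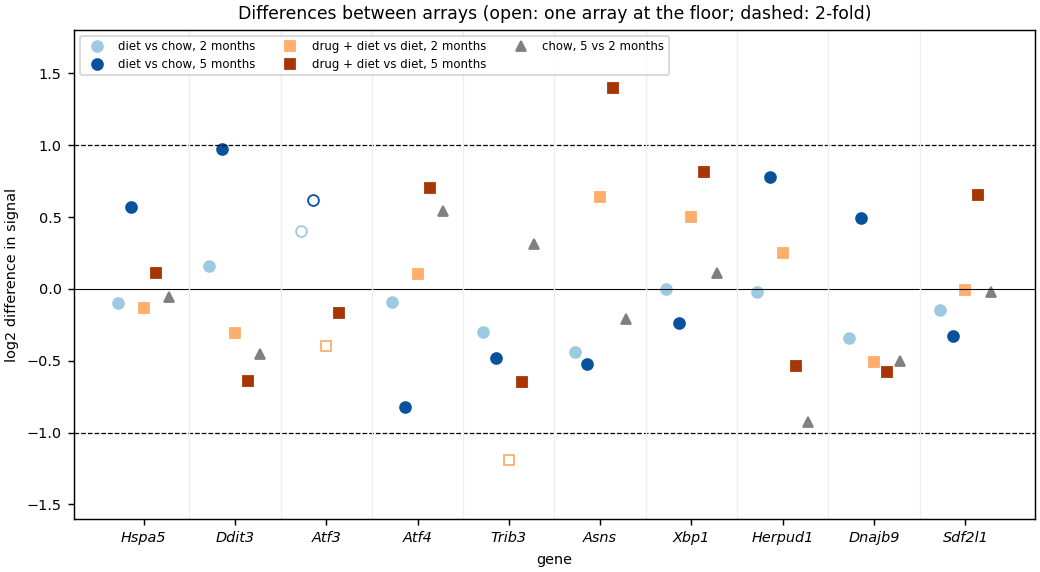
Log2 differences in signal of the 10 genes for the diet (against chow), for the drug (against the diet alone) and for the pair of chow arrays; open symbols are bounds where 1 array was at the floor, comparisons with both arrays at the floor are left out, and dashed lines mark 2-fold. Asns at 5 months (1.40) and Trib3 at 2 months (-1.19) lie outside the lines, and the chow pair reaches -0.93 for Herpud1.

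Counted over the 10 genes, fast food against chow in the 2-month study gave 0 genes past 2-fold upward and 0 downward, where 1.98% and 1.55% of all measured genes were past it. At 5 months it gave 0 and 0, against 2.72% and 1.83%. The drug against diet gave 0 higher and 1 lower (Trib3) at 2 months, against 3.55% and 3.26%, and 1 higher (Asns) and 0 lower at 5 months, against 2.19% and 2.73%. The drug with diet against chow gave 0 higher and 1 lower (Trib3) at each time, where the shares of measured genes were 3.80% higher and 2.74% lower in the 2-month study, and 2.82% and 2.72% in the 5-month study. This comparison shares its arrays with the other 2 and is not separate from them. Between the chow arrays 0 of the 10 were higher and 0 lower, against 1.28% and 1.32%. With only 10 genes, such shares correspond to less than 1 gene, so these counts do not set the 10 apart from the rest. Their median log2 difference was -0.10 and 0.12 for the diet and -0.07 and -0.03 for the drug, beside 0.00 for all measured genes in each of these 4 comparisons.

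The fit over both studies took the 2-month and 5-month arrays of a treatment as repeats, with the study as a block and 2 residual degrees of freedom, so a difference in effect between the studies counts as error. At a limma adjusted p under 0.05 it called 0 of the 10 genes for the diet (0.0286% of measured genes were called), 0 for the drug against diet (0.715%) and 0 for the drug with diet against chow (0.765%). At an unadjusted p under 0.05 there were 1 for the diet (Atf3), 3 for the drug against diet (Asns, Xbp1 and Trib3) and 2 for the drug with diet against chow (Trib3 and Xbp1). Over all measured genes that share was 9.87%, 14.8% and 15.6%, so 1 to 3 of 10 genes lies near the background. The lowest adjusted p-values were 0.406, 0.141 and 0.111 for the 3 comparisons.

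**Figure D3:**
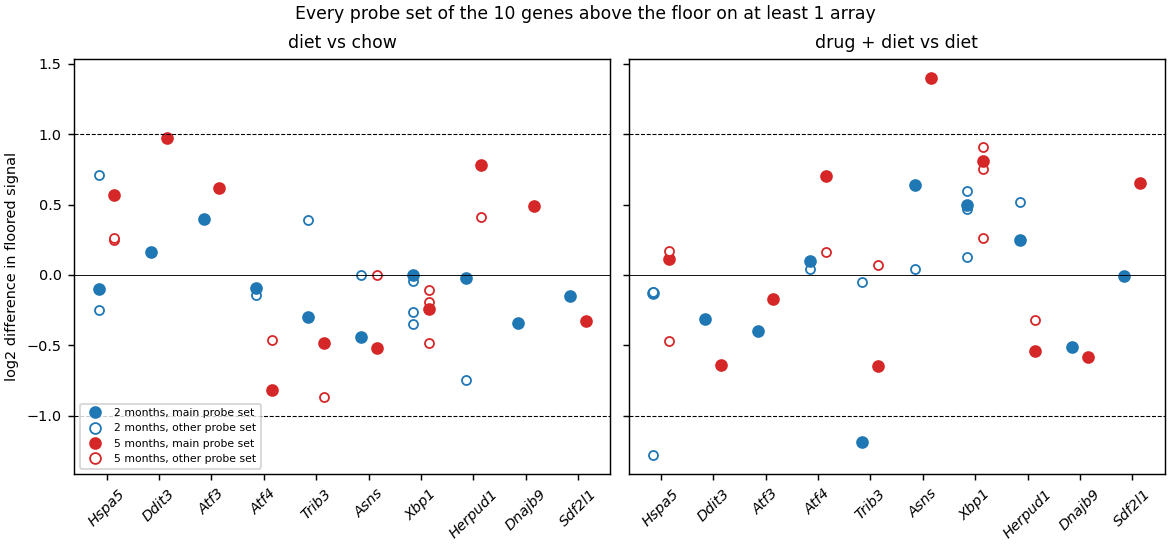
Log2 differences in floored signal for every probe set of the 10 genes that was above the floor on at least 1 array, for the diet (left) and the drug (right); filled points are the probe set used, open points the others, blue 2 months and red 5 months. The 4 Xbp1 sets lie above 0 for the drug at both times, both Asns sets share the 5-month point at 1.40, a bound for the second set, and the Trib3 sets part.

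The other genes of these pathways were read from 7 lists, of which 134 of 137 genes on the array were measured. In the 2-month study 1 gene was higher with fast food by 2-fold or more (Fgf21) and 3 lower (Pdia5, Derl3, Qars). In the 5-month study 4 were higher (Eif2ak3, Nck1, Cebpb, Ddit4) and 2 lower (Cth, Phgdh). For the drug against diet the 2-month study had 6 higher (Ppp1r15a, Ero1a, Pdia5, Tram1, Ddit4, Slc38a2) and 3 lower (Fgf21, Phgdh, Stc2). The 5-month study had 2 higher (Pdia5, Ddit4) and 2 lower (Eif2ak3, Phgdh). Of all measured genes, 1.98% were that much higher and 1.55% lower with fast food at 2 months, and 2.72% and 1.83% at 5 months. For the drug against diet the shares were 3.55% and 3.26%, then 2.19% and 2.73%. Such shares of 134 genes correspond to a few genes each, so the counts lie near the background. Fgf21, Nck1, Cebpb and Slc38a2 are outside the naming rule and are named for these counts after their values were seen. The 2-month chow and drug readings of Fgf21 were under the floor, so both of its calls are bounds that depend on the floor. The medians of the 134 genes were 0.01 and -0.05 for the diet and 0.04 and 0.18 for the drug, and the 2-month drug median was -0.05 after median centring. The limma fit called 0 of the 134 for the diet, with 16 at an unadjusted p under 0.05. It called 1 for the drug against diet, with 28 at an unadjusted p under 0.05, and 2 for the drug with diet against chow, with 24. These unadjusted counts were 11.9%, 20.9% and 17.9% of the 134, beside 9.87%, 14.8% and 15.6% of all measured genes. The lists were chosen with earlier results of these data known, so a higher share among them is a description only.

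Among 25 measured ER chaperones and folding enzymes, the median with the drug was 0.46 at 5 months and 0.09 at 2 months, and -0.02 after median centring for the latter. In the same comparisons the median of the hepatocyte markers was 0.42 in the 5-month and 0.32 in the 2-month study, with 7 of 7 higher each time. After quantile scaling their medians were 0.00 and 0.01, where the chaperone medians were 0.43 and 0.09. Quantile scaling gives equal ranks the same signal, and most of these markers are among the brightest of the genes read. Their medians near 0 thus come from the scaling and do not bear on the chaperones. The part of hepatocyte content in the chaperone medians was not tested. At 5 months 21 of the 25 were higher in any amount and 4 lower, where 6342 of all 13988 genes were higher and 6511 lower. Only Pdia5 passed 2-fold. Calreticulin (Calr) was higher by 0.76 and the disulfide isomerase gene Pdia6 by 0.50, both above the list's median. These 2 genes were named after their values were seen. Pdia5, a disulfide isomerase that activates ATF6, read 2345.0, 1085.7 and 3796.8 on chow, fast food and drug at 2 months and 2673.3, 1343.1 and 3932.6 at 5 months. In both studies fast food was lowest and the drug array highest, and the 3 treatments did not overlap. Its estimate for the drug against diet was 1.68 ± 0.13 (SE), a limma adjusted p of 0.0192, and it was the only one of the 134 genes called there. That p was 0.0608 without the variance trend and 0.0598 with the mean over probe sets, within a range of 0.00113 to 0.0608 over 9 alternatives. The oxidase gene Ero1a, which reoxidises these isomerases, had 1.04 and 0.59. With the diet the chaperone medians were -0.04 at both times.

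**Figure D4:**
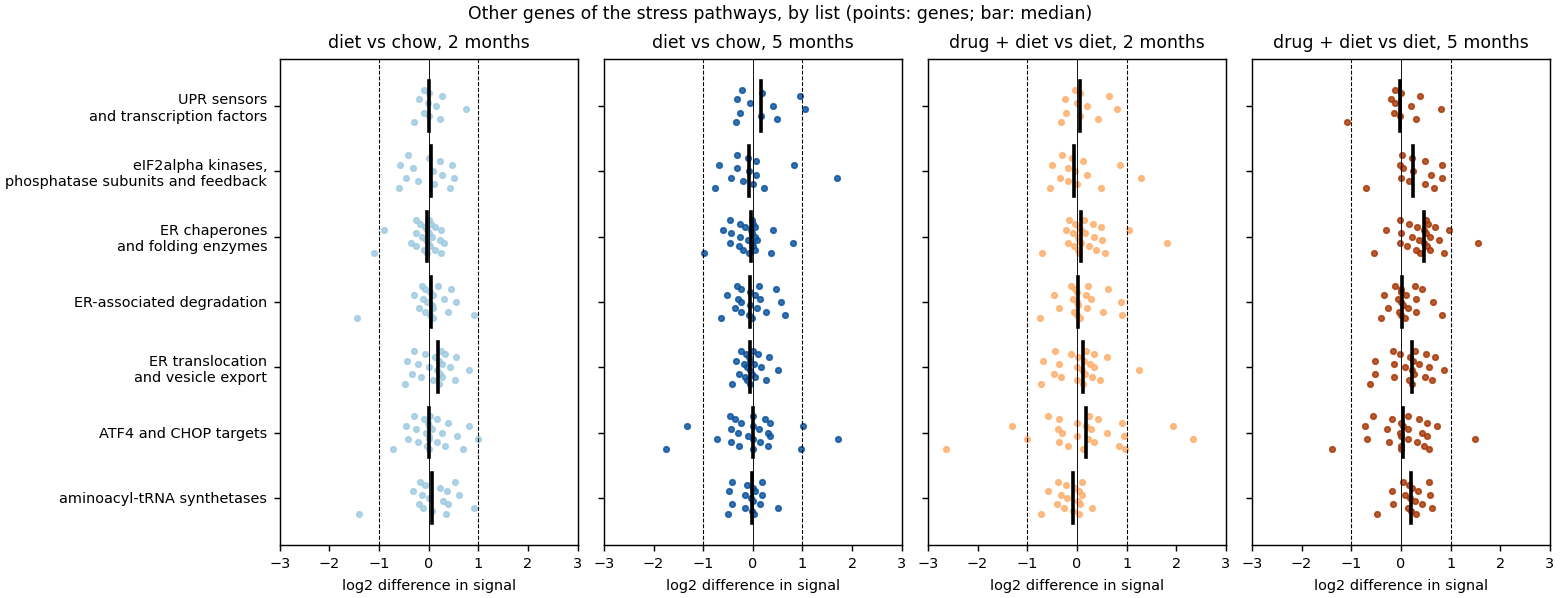
Log2 differences in signal of the 134 other pathway genes by list, 1 point per gene (vertical position within a list only separates points), with the list's median as a black bar and 2-fold as dashed lines. The chaperone list at 5 months with the drug has the largest shift of its median, 0.46, and most points of every list lie within 2-fold.

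The sensor list had 11 measured genes. Eif2ak3, which encodes PERK, was 2.07-fold higher with fast food at 5 months (672.8 on chow, 1393.9 with fast food) and 2.12-fold lower with the drug (657.3). At 2 months the same arrays read 723.2, 872.1 and 751.3, so the 5-month fast-food array was the single high one. Atf6 was higher with the drug by 0.64 and 0.30, and Ern1, the gene of IRE1, was lower with fast food by -0.19 and -0.26. Of the 14 eIF2alpha genes, Ppp1r15a, which encodes the stress-induced phosphatase subunit GADD34, was higher with the drug by 1.30 and 0.82. Eif4ebp1, a translation repressor and ATF4 target, was higher by 0.86 and 0.82, with a limma adjusted p of 0.0756.

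ER-associated degradation genes (20 measured) had drug medians of 0.02 and 0.03 and none at least 2-fold different with the drug. Edem1, which passes misfolded glycoproteins to degradation and depends on XBP1, was the highest of them in both studies, with 0.91 and 0.82 and a limma adjusted p of 0.0659. With fast food Derl3 was lower by a bound of -1.45 at 2 months and by -0.36 at 5 months. Of the 22 translocation and export genes, Tram1, which helps proteins enter the ER, was higher with the drug by 1.26 and 0.69, and Sec24d, a COPII coat gene, was lower by -0.72 and -0.52 after being higher with the diet by 0.53 and 0.50. This list was also 0.14 higher on 5-month than on 2-month chow, with 20 of 22 higher, where 6407 of all measured genes were higher and 6462 lower. The 17 aminoacyl-tRNA synthetases had drug medians of -0.08 and 0.20, and none was at least 2-fold different with the drug.

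The 25 measured ATF4 and CHOP targets split. Ddit4, which encodes the mTORC1 inhibitor REDD1 and also answers to glucocorticoids and hypoxia, read 268.0, 469.4 and 2367.6 at 2 months and 189.3, 724.3 and 2044.4 at 5 months on chow, fast food and drug. In both studies the order was chow, fast food, drug, with the 5-month chow array under the floor, and the drug arrays were 5.04-fold and 2.82-fold over fast food. Against chow its limma estimate was 3.18 ± 0.30 (SE), adjusted p 0.0199, or 0.0742 with the mean over probe sets. Phgdh, the first enzyme of serine synthesis, read 4871.4, 4080.7 and 656.4 at 2 months and 3886.8, 1163.6 and 443.9 at 5 months. It was 6.22-fold and 2.62-fold lower with the drug than with the diet, and its estimate against chow was -3.01 ± 0.36 (SE), adjusted p 0.0415, or 0.142 with the mean over probe sets, 0.0895 without the variance trend and 0.0551 with the floor at the 40th percentile. Of its 3 dimmer probe sets, 1 gave -0.33 and -0.76 for the drug, another gave 0.04 and 0.19 with only 2 arrays above the floor, and the last was under the floor throughout. The cysteine synthesis gene Cth was lower with fast food by -0.46 and -1.32 and higher with the drug by 0.96 and 0.72, and the secreted stanniocalcin Stc2 was lower with the drug by -1.31 and -0.72. The list's medians with the drug were 0.18 and 0.05.

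Genes with patterns most like 2 of the members were ranked by Pearson correlation of log2 signal over the 6 arrays among 9873 genes above the floor on all of them, as a description. Closest to Hspa5 were 9330151L19Rik, Kpnb1, Crk, Hes1 and Cacul1, at 0.981 to 0.991, and none of them is in the pathway lists. The 7 other members above the floor on all arrays, so without Atf3 and Trib3, correlated with Hspa5 at -0.387 (Herpud1) to 0.433 (Ddit3). Closest to Asns were Nme2, Tmem160, Tmem270, Rb1cc1 and Lrp6, at 0.980 to 0.991. Xbp1 came 76th at 0.915 and Sdf2l1 174th at 0.867. Atf4 had 0.599, Hspa5 0.144 and Herpud1 -0.218, while Ddit3 and Dnajb9 had -0.578 and -0.597. The 6 points share the scaling of each array and differ in diet, drug and study at once.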

How the data were processed

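Arrays were of liver RNA pooled from 3 to 4 mice, 1 array for each of 6 groups, with biotinylated cRNA made from 6 ug total RNA per the labels' protocols. The deposited intensity values are MAS5 signals per the submitters' processing notes, on a linear scale; from the values, the authors had scaled each array to a mean of 500 after 2% of probe sets were trimmed at each end. No source used here names a MAS5 version, and no detection calls were used.

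Of 45101 probe sets, 34958 had 1 gene symbol in the platform annotation, 932 several and 9211 none. Each gene took its one-symbol probe set with the highest mean. Signals were raised to the floor of 221.4 and log2 transformed, and 2-fold was the threshold for differences between single arrays. With 1 array at the floor a fold is a bound. The linear fit (limma 3.58.1, R 4.3.3) used all 6 arrays, treatment and study as terms, a variance trend and Benjamini-Hochberg adjustment over 13988 genes. A check on simulated data used the same change in both studies, so it does not cover effects that differ between them. Signals are not comparable between genes. Array number limits precision.

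Members and lists were chosen with earlier results of these data known. From the 7 pathway lists, named genes were the top 2 upward and the top 2 downward by the smaller of both studies' differences, for the diet and for the drug, and any called by limma. Part of these are given, and exceptions are stated where they occur. Promoters of all 10 genes matched RefSeq by symbol. Alternatives were quantile and median scaling, other floors, other probe set rules, a stricter filter, thresholds of 1.5-fold and 3-fold, and no variance trend. Analyses used Python 3.11.15, pandas 2.3.3, NumPy 2.4.6 and SciPy 1.17.1, and figures matplotlib 3.10.9.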

Additional observations from a re-analysis of the deposited data

Results flagged for a closer look

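Some genes had opposite signs in the 2-month and 5-month studies and log2 differences apart by more than 0.40, the SD over all measured genes of the difference between the chow arrays. The difference between the studies was not tested, since each has 1 array per group. For the diet against chow they were Hspa5 (-0.10 at 2 months and 0.57 at 5 months, 0.67 apart), Herpud1 (-0.02 and 0.78, 0.80 apart) and Dnajb9 (-0.34 and 0.49, 0.83 apart). For the drug against diet they were Herpud1 (0.25 and -0.54, -0.80 apart) and Sdf2l1 (-0.01 and 0.65, 0.65 apart). For the drug with diet against chow they were Hspa5 (-0.23 and 0.68, 0.91 apart), Ddit3 (-0.15 and 0.33, 0.49 apart) and Sdf2l1 (-0.16 and 0.31, 0.47 apart). The chow arrays themselves differed by -0.93 for Herpud1, -0.50 for Dnajb9 and -0.45 for Ddit3, and by -0.06 and -0.02 for Hspa5 and Sdf2l1. After median centring the 2-month diet differences were 0.00 for Hspa5 and 0.09 for Herpud1, so their opposite signs depend on the scaling.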

How the results depend on the processing

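Of 532 log2 differences of the 10 genes recomputed under 8 alternatives, 506 moved by less than 0.40, 26 moved by more, and 0 that were at least 2-fold turned sign; Atf3 accounts for 12 of the 26. Counts of genes past the fold threshold were small and shifted by single genes. The 1 gene at least 2-fold lower with the drug at 2 months, against diet and against chow, was Trib3. It became 0 with the floor at the 60th percentile, the mean over probe sets or 3-fold. Against chow at 5 months the 1 lower, again Trib3, became 0 with the mean over probe sets or 3-fold. Probe sets without _s_at, _x_at or _a_at endings, and genes above the floor on all 6 arrays, also gave 0 each time. Trib3 was not among the genes kept under those settings, so they do not check it. For Atf3, the 0 genes higher became 1 with no floor (diet at both times, drug with diet against chow at both times, and the chow pair) and with the floor at the 40th percentile (diet at both times, drug with diet against chow at 5 months). The mean over probe sets gave 1 higher for the drug with diet against chow at 5 months, and quantile scaling gave 1 lower between the chow arrays. At 1.5-fold there were 3 higher and 1 lower with the diet at 5 months, 1 higher with the drug against diet at 2 months, 4 higher and 2 lower at 5 months, 2 lower against chow at 2 months, 2 higher at 5 months and 1 lower in the chow pair. At 3-fold the 1 higher with the drug at 5 months became 0. In limma, 0 genes called for the drug against diet became 1, Asns, with genes above the floor on all 6 arrays. Phgdh against chow ranged from an adjusted p of 0.00115 to 0.142 over 8 alternatives, and Ddit4 from 0.00890 to 0.0742. The limma fit already holds the study as a block, and within a study no further pairing exists, since each group has 1 array. Leaving out an array was not done, since each is its whole group. Dim signals limit Atf3, Ddit3 and Trib3.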

Other observations

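Manf and Creld2, which encode secreted ER stress proteins, were chosen after their values were seen. Manf read 1884.7, 1474.4 and 1516.5 on chow, fast food and drug at 2 months and 1423.6, 2494.0 and 2011.0 at 5 months. Creld2 read 1248.0, 670.6 and 712.1, and then 864.6, 1151.4 and 784.2. Both were lower with fast food than chow at 2 months (-0.35 and -0.90) and higher at 5 months (0.81 and 0.41), the signs that Hspa5, Herpud1 and Dnajb9 had. For Hspa5 and Herpud1 the 2-month sign was lost after median centring (0.00 and 0.09). Of the 25 measured chaperone genes, which include Manf and Creld2, 15 were lower with fast food at 2 months. Only 8 of them were higher at 5 months, and 17 were lower. Between the chow arrays Manf and Creld2 were lower at 5 months by -0.40 and -0.53. The chaperone gene Hsp90b1 had the same signs with a small 5-month difference (-0.26 and 0.04), and Hyou1 was lower at both times (-0.04 and -0.20). Hsp90b1 and Hyou1 are outside the naming rule too. Fgf21, an ATF4 target and liver hormone, read 186.5 and 553.2 on the chow arrays at 2 and 5 months, 444.1 and 605.4 with fast food, and 212.0 and 407.3 with the drug. The readings of 186.5 and 212.0 were under the floor.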
